A study of Mus musculus with 12 samples.

Results

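The mitochondrial ribosomal protein genes are the nuclear genes whose products are carried into mitochondria and build the 2 subunits of the mitochondrial ribosome. They were taken from the deposited mRNA transcript table as every gene whose name begins with Mrpl or Mrps followed by a digit. This gave 78 of 21771 genes, 49 with a large subunit name (Mrpl) and 29 with a small subunit name (Mrps), and 170 of 59215 transcripts. The study compared MTEC1 cells, a mouse line of WT genotype that is labelled as medullary thymic epithelial, with and without PAMK, a polysaccharide of Atractylodes macrocephala Koidz. PAMK cells received 50 µg/ml for 12 h, and the control cells were untreated and cultured for 6 h per the series' design, so that treatment and culture time cannot be told apart. Each group had 3 total RNA libraries depleted of ribosomal RNA. Whether the libraries of a group are separate cultures is not stated in the labels, so each p-value is set against a spread between libraries that could be technical.

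The mitochondrial ribosome translates the few messages encoded in mitochondrial DNA, which specify core subunits of the respiratory chain and of the ATP synthase. Its RNA comes from the mitochondrial genome, while all of its proteins come from nuclear genes. About these proteins it is known that many descend from bacterial ribosomal proteins and that others were added in the mitochondrial lineage. The large subunit carries the peptidyl transferase centre, and the small subunit binds the message and decodes it. The names do not always give the subunit: in solved structures, Mrps18a and Mrps30 lie in the large subunit, and Mrps36 is a component of the 2-oxoglutarate dehydrogenase complex.

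Values are FPKM, a level per transcript length and per library, summed over the transcripts of a gene; the unit was inferred and the read depth behind it is unknown. The deposited mRNA FPKM summed to between 142227 and 145879 per PAMK library and between 133684 and 145035 per control library. A value of 0 means only that a row was listed as unmeasured: 12 of the 13 mitochondrially encoded protein genes were listed at 0 in all 6 libraries. The labelled cell type could not be checked firmly by its markers, since a 0 does not show absence. Epcam, Krt5, Krt14 and Aire were listed at 0 in every library. The 6 epithelial markers summed to 0.151 to 0.323 FPKM in PAMK cells and 0.189 to 0.256 FPKM in control cells. Krt8 among them lay between 0.151 and 0.280 FPKM in all 6 libraries. Of the 6 medullary thymic epithelial markers only Cd80 was above 0, between 0.0994 and 0.244 FPKM in all libraries. The highest of 4 cortical thymic epithelial markers was Ly75. It had 0.906 to 2.21 FPKM in PAMK cells and 1.92 to 2.09 FPKM in control cells, with overlap. The 5 mesenchymal markers summed to 505 to 708 FPKM in PAMK cells and 436 to 567 FPKM in control cells. Of these, Col1a1 and S100a4 were higher in every PAMK library than in any control library, Col1a1 at 48.2 to 57.7 FPKM in PAMK cells against 28.3 to 37.3 FPKM in control cells and S100a4 at 350 to 391 FPKM in PAMK cells against 298 to 323 FPKM in control cells (limma p 0.00681 and 0.00726, adjusted p 0.315 for both), and Col1a2 ranged from 0 to 91.2 FPKM within the PAMK group. Vim overlapped between groups, at 106 to 253 FPKM in PAMK cells and 92.5 to 143 FPKM in control cells. Pdgfrb lay between 0.242 and 0.368 FPKM in all 6 libraries, so the mesenchymal markers were not all high. The part of these markers in the results below was not tested. In such bulk samples fewer cells of a type and less RNA per cell cannot be told apart.

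The members lie on 17 chromosomes, and each of the 78 overlapped the RefSeq gene of the same name in GRCm38.p6 by the deposited positions, for which no build is given. Of the 78, 20 (25.6%) began within 1000 bp of a gene on the opposite strand that runs away from them, against 11.9% of the 9781 genes tested. Mrpl46 and Mrps11, one gene of each subunit, formed such a pair with starts 30 bp apart. Mrps18c paired with Helq at 29 bp, Mrps27 with Ptcd2, a gene for another mitochondrial RNA-binding protein, at 81 bp, and Mrps12 with Sars2, the mitochondrial seryl-tRNA synthetase, at 182 bp. In all, 18 members (23.1%) overlapped a second gene, against 22.6% of the genes tested. Whether the authors counted by strand is not stated, so reads of overlapping genes cannot be assigned with certainty; Mrpl24, Mrps18a and Mrpl13 are among them.

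Promoter sequences were available from RefSeq (GRCm38.p6) for 69 members, as windows of 300 bases from 250 before to 50 after the annotated start. NRF1 and the ETS factor GABP are known activators of nuclear genes for mitochondria, and YY1 is known to regulate many of the same genes. The NRF1 motif, GCGCA and GCGC with 1 base of any kind between them, occurred in 13 member windows (18.8%), against 11.9% of 7854 windows of tested genes. All motifs were searched on both strands. The ETS motif CCGGAAG occurred in 25 member windows (36.2%), against 20.3%, and the YY1 motif AAGATGGC in 12 (17.4%), against 5.23%. The CCAAT box was found in 39.1% of member windows against 40.0%, the GC box GGGCGG in 49.3% against 67.7%, the TATA box TATAAA in 5.80% against 6.46% and the E-box CACGTG in 7.25% against 10.8%. The windows shown are those of the members with the smallest p in the comparison after Mrpl15, and of Mrps11, whose start faces that of Mrpl46. They are given 5′ to 3′ on the strand of the gene, with matches to the NRF1, ETS or YY1 motif on either strand in capitals. The windows are Mrps18c at chr5:100798509-100798808, Mrps2 at chr2:28467816-28468115, Mrpl24 at chr3:87919294-87919593, Mrps27 at chr13:99344536-99344835 and Mrps11 at chr7:78782881-78783180, all on the plus strand.
Mrps18c: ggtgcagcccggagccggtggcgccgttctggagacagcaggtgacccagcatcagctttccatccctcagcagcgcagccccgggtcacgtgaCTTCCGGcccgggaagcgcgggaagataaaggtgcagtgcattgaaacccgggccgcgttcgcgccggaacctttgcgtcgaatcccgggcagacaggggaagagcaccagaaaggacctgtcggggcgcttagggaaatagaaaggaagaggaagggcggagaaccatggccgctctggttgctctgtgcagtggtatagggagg
Mrps2: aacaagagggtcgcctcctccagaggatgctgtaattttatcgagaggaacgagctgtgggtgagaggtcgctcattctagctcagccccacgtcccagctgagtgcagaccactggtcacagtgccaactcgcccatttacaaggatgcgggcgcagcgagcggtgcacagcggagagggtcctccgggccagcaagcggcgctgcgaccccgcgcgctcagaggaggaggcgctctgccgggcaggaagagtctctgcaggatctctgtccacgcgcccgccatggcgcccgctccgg
Mrpl24: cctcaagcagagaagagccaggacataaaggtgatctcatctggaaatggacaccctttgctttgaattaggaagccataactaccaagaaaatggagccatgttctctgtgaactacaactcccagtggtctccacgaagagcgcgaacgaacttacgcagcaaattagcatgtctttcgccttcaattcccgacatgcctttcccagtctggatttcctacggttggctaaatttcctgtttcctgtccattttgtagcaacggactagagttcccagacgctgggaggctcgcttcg
Mrps27: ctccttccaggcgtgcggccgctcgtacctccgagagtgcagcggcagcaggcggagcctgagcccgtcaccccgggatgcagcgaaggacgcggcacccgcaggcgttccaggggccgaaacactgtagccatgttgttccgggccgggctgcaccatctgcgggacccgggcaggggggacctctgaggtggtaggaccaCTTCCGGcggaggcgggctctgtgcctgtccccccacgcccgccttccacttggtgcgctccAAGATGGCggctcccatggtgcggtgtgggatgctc
Mrps11: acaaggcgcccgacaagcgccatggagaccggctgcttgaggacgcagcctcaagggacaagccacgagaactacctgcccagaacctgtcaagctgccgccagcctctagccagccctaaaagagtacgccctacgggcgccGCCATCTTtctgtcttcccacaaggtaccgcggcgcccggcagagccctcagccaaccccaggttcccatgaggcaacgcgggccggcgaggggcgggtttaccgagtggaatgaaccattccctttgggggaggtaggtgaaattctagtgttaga
In these letters Mrps18c held an ETS match, Mrps27 an ETS and a YY1 match, and Mrps11 a YY1 match, while Mrps2 and Mrpl24 held none of the 3 motifs. A match is a description of the letters only.

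The main comparison asked whether members differed between PAMK and control cells. Mrpl15, the gene of a large subunit protein with a bacterial counterpart, was called higher in PAMK cells than in control cells. No other member passed the threshold, and the Mrpl15 call did not hold in all alternatives given below. Of 74 members with a mean of at least 0.5 FPKM, 1 was called at a limma adjusted p under 0.05 (Benjamini-Hochberg over 9781 genes), against 0.0716% of all genes tested (7 genes) and, for the 2 genes called higher, 0.0204%. The large subunit had 1 of 46 called and the small subunit 0 of 28. Mrpl15 was singled out beforehand with its earlier result in these data known. Its call and the share called therefore describe the list and are no independent support. At an unadjusted limma p under 0.05, 11 large and 7 small subunit genes were higher, 18 in all (background 7.30% of genes), and 1 large subunit gene, Mrpl20, was lower (2.71%). These counts moved with the scaling: with libraries brought to equal medians, 7 members were higher (3.51% of all genes) and 5 lower (7.55%), and with quantile normalization 13 were higher (4.36%) and 4 lower (5.28%). The shares of all genes moved with the scaling too, and the median FPKM of all tested genes was 4.35 to 4.43 in PAMK libraries and 4.03 to 4.09 in control libraries.

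Mrpl15, on chromosome 1 at 4773206 to 4785739 on the minus strand, had 14.2, 13.8 and 13.8 FPKM in the PAMK libraries, against 6.74, 7.43 and 6.96 FPKM in the control libraries. The groups did not overlap, and the replicates of each lay close together. The log2 fold change of FPKM + 1 was 0.89 ± 0.065 (SE, n = 3 each), with a limma adjusted p of 0.0414. This call is near the threshold: it was lost whichever of the 6 libraries was left out (limma adjusted p 0.0530 to 0.120) and with equal medians (0.0510), without an eBayes trend (0.0605) and with robust eBayes (0.0556).

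The 3 deposited transcripts of Mrpl15 had unlike patterns. ENSMUST00000156816, at 4773211 to 4785739, had 6.83, 4.57 and 7.27 FPKM in the PAMK libraries and was listed at 0 in all 3 control libraries (limma adjusted p 0.0177 over 14728 transcripts). That p is set against values of 0 with no spread, and the transcript passed the filter on low values through the PAMK libraries alone. It made up 33.0% to 52.7% of the gene's FPKM in PAMK libraries. The call was lost without PAMK library 1 (limma adjusted p 0.0507), control library 1 (0.0562) or control library 2 (0.0599), and kept without each of the other 3 libraries. ENSMUST00000146665, which ends upstream at 4781221, had 5.34, 6.58 and 5.15 FPKM in PAMK cells, against 4.60, 4.88 and 4.26 FPKM in control cells, groups that do not overlap but lie close (log2 fold change 0.26 ± 0.125 SE, limma adjusted p 0.675). ENSMUST00000130201, at 4773206 to 4785710, had 2.02, 2.67 and 1.38 FPKM in PAMK cells, against 2.14, 2.56 and 2.70 FPKM in control cells, and these overlapped (log2 fold change -0.22 ± 0.202 SE, limma adjusted p 0.805).

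Without ENSMUST00000156816, a sum chosen after the values were seen, Mrpl15 had 7.36, 9.26 and 6.52 FPKM in PAMK libraries and 6.74, 7.43 and 6.96 FPKM in control libraries. The groups then overlapped, with a log2 fold change of 0.10 ± 0.135 (SE). The transcript left out was picked for its 0 values in the control libraries, so this sum is a description and no test. Among 8759 mRNA transcripts with at least 1 FPKM in every library of a group, 17 (0.194%) had at least 1 FPKM in all 3 PAMK libraries and 0 in all 3 control libraries, and 1 (0.0114%) the reverse. Of 84 such member transcripts, ENSMUST00000156816 was the only one in the first class, and none was in the second. It was singled out with this pattern known, so its place in that class is a description and no independent support.

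**Figure D1:**
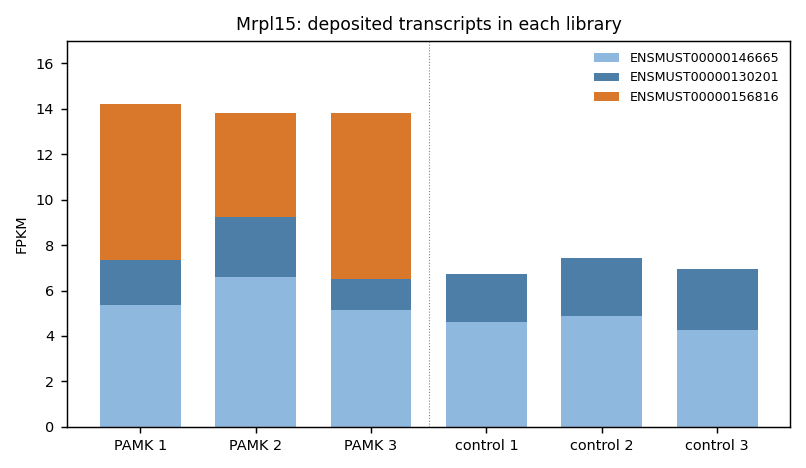
FPKM of the 3 deposited Mrpl15 transcripts, stacked, in each PAMK and control library. ENSMUST00000156816 (orange) adds 4.57 to 7.27 FPKM in the PAMK libraries and is listed at 0 in the control libraries, while the other transcripts together lie between 6.52 and 9.26 FPKM in all 6.

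The lncRNA table held 2 further Mrpl15 transcripts. ENSMUST00000192286 had 3.03, 3.47 and 3.67 FPKM in PAMK libraries, against 2.81, 2.28 and 2.36 FPKM in control libraries, without overlap (limma adjusted p 0.858). ENSMUST00000132625 had 0.628, 0.0660 and 0.252 FPKM in PAMK libraries and was listed at 0 in the control libraries (limma adjusted p 0.839). With the lncRNA-table transcripts added to the gene, the Mrpl15 log2 fold change was 0.82 with a limma adjusted p of 0.0297. That sum still holds ENSMUST00000156816, and Mrpl15 was singled out with its earlier result known. The value is therefore no independent support.

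Among the other large subunit genes none passed the threshold. Mrpl24, whose counterpart in Escherichia coli starts the assembly of the large subunit, had 19.0, 18.9 and 17.9 FPKM in PAMK cells, against 14.8, 14.7 and 16.2 FPKM in control cells. Its groups did not overlap (log2 fold change 0.28 ± 0.063 SE, limma adjusted p 0.315), and its main transcript, ENSMUST00000119968, had 11.0, 14.1 and 11.2 FPKM in PAMK cells, against 7.28, 6.83 and 8.32 FPKM in control cells (limma adjusted p 0.377). Mrpl13, with a bacterial counterpart, had 47.8, 50.1 and 45.5 FPKM in PAMK cells and 41.0, 42.0 and 43.7 FPKM in control cells (log2 fold change 0.17, limma adjusted p 0.425). Mrpl37, one of the proteins added in mitochondria, had 12.4, 12.4 and 11.2 FPKM in PAMK cells and 8.60, 9.21 and 10.7 FPKM in control cells (0.31, limma adjusted p 0.438). With equal medians the log2 fold changes were smaller, 0.16 for Mrpl24, 0.06 for Mrpl13 and 0.20 for Mrpl37.

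Mrpl51, also specific to mitochondria, had 2.93, 2.34 and 2.81 FPKM in PAMK cells and 1.68, 2.02 and 1.85 FPKM in control cells (log2 fold change 0.37, limma adjusted p 0.425). Mrpl32, a bacterial-type protein that a mitochondrial protease trims before it joins the ribosome, had 1.85, 1.67 and 2.42 FPKM in PAMK cells and 0, 0 and 1.43 FPKM in control cells (limma adjusted p 0.454). In both genes every PAMK library lay above every control library, but the Mrpl32 control group includes rows listed at 0. With the lncRNA-table transcripts added to the genes, the log2 fold change of Mrpl51 turned to -0.27 and that of Mrpl32 was 0.11, against 1.14 from the mRNA table (limma adjusted p 0.804 and 0.922). Mrpl20, with a bacterial counterpart and named here after its values were seen, went the other way. It had 0.0260, 0.490 and 0.179 FPKM in PAMK cells, against 9.92, 0.560 and 10.1 FPKM in control cells (log2 fold change -2.24 ± 0.834 SE, limma adjusted p 0.489). Control library 2 lay next to the PAMK libraries, and without it Mrpl20 was the 1 member called.

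The other large subunit genes at an unadjusted limma p under 0.05 were Mrpl12, Mrpl30, Mrpl34, Mrpl39 and Mrpl40, of which the last 3 were named after their values were seen. Mrpl34, with a bacterial counterpart, had 28.7, 30.1 and 26.7 FPKM in PAMK cells, against 22.6, 25.0 and 26.0 FPKM in control cells. Mrpl39, specific to mitochondria, had 1.51, 1.71 and 1.40 FPKM in PAMK cells, against 1.21, 0.985 and 1.12 FPKM in control cells. Both separated the groups by narrow gaps (limma adjusted p 0.489 and 0.490). Mrpl40, also specific to mitochondria, had 7.85, 5.86 and 3.92 FPKM in PAMK cells and 1.83, 2.23 and 4.44 FPKM in control cells, with overlap (limma adjusted p 0.498). Within the large subunit, the lowest log2 fold changes after Mrpl20 were those of Mrpl1 and Mrpl33, both with bacterial counterparts and both chosen after their values were seen. Mrpl1 had 1.05, 1.38 and 0.864 FPKM in PAMK cells and 1.23, 3.53 and 3.47 FPKM in control cells, and Mrpl33 had 6.99, 9.19 and 9.06 FPKM in PAMK cells and 9.07, 14.0 and 15.3 FPKM in control cells (limma adjusted p 0.513 and 0.512). In each of them control library 1 lay within the PAMK range.

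No small subunit gene passed the threshold. Mrps18c, of the protein family related to one bacterial small subunit protein, had 6.72, 6.49 and 8.17 FPKM in PAMK cells, against 3.99, 4.13 and 4.43 FPKM in control cells. All PAMK libraries lay above all control libraries, with a log2 fold change of 0.64 ± 0.111 (SE) and a limma adjusted p of 0.263. None of its 3 transcripts separated the groups on its own: 1 of them, ENSMUST00000112898, was measured only in PAMK library 3 (4.13 FPKM) and listed at 0 in the other 5 libraries. Mrps2, with a bacterial counterpart, had 5.62, 3.84 and 6.00 FPKM in PAMK cells and 2.39, 1.76 and 1.69 FPKM in control cells, from a single transcript (log2 fold change 1.05 ± 0.191 SE, limma adjusted p 0.268).

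Mrps27, a pentatricopeptide repeat protein, had 17.7, 17.1 and 16.4 FPKM in PAMK cells and 14.5, 14.7 and 13.8 FPKM in control cells (log2 fold change 0.23, limma adjusted p 0.349). Mrps35, a protein specific to mitochondria, had 4.34, 4.66 and 4.61 FPKM in PAMK cells and 3.45, 3.11 and 3.52 FPKM in control cells (0.35, limma adjusted p 0.364). Mrps31, likewise specific to mitochondria, had 2.10, 1.43 and 1.92 FPKM in PAMK cells and 0.593, 1.27 and 0.702 FPKM in control cells (0.61, limma adjusted p 0.413). In each of these the groups did not overlap, yet the differences did not pass over all genes tested. The log2 fold change was 0.12 for Mrps27 with equal medians, and 0.17 for Mrps35 and 0.21 for Mrps31 with lncRNA-table transcripts added.

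Of the names that depart from their subunit, Mrps18a had 6.88, 6.94 and 6.00 FPKM in PAMK cells, against 4.78, 4.41 and 5.46 FPKM in control cells, without overlap (log2 fold change 0.37, limma adjusted p 0.392). Mrps30 had 12.3, 6.51 and 10.3 FPKM in PAMK cells and 7.05, 8.20 and 7.14 FPKM in control cells, with overlap (limma adjusted p 0.696). Mrps36 ranged widely in both groups, with 10.4, 16.3 and 4.09 FPKM in PAMK cells and 4.46, 15.5 and 1.61 FPKM in control cells (limma adjusted p 0.787). Counting Mrps18a and Mrps30 as large and leaving out Mrps36 gave 1 of 48 large and 0 of 25 small subunit genes called.

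Over the whole list, 53 of 74 members had a log2 fold change above 0, against 60.5% of all genes tested. By name these were 32 of 46 large and 21 of 28 small subunit genes. The median log2 fold change was 0.14 over the members, 0.10 in the large and 0.23 in the small subunit, beside 0.06 over all genes. With equal medians it was 0.02 in the large and 0.14 in the small subunit, beside -0.03 over all genes, and 44 of 74 members lay above 0, beside 4329 of 9781 genes. Every PAMK library was above every control library in 20 of 74 members (13 large, 7 small; background 14.1%), and below in 3, Mrpl20, Mrps14 and Mrps17 (background 5.40%). Members with a bacterial homologue had a median of 0.10 over 42 tested, and the other members, leaving out Mrps36, 0.15 over 31.

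**Figure D2:**
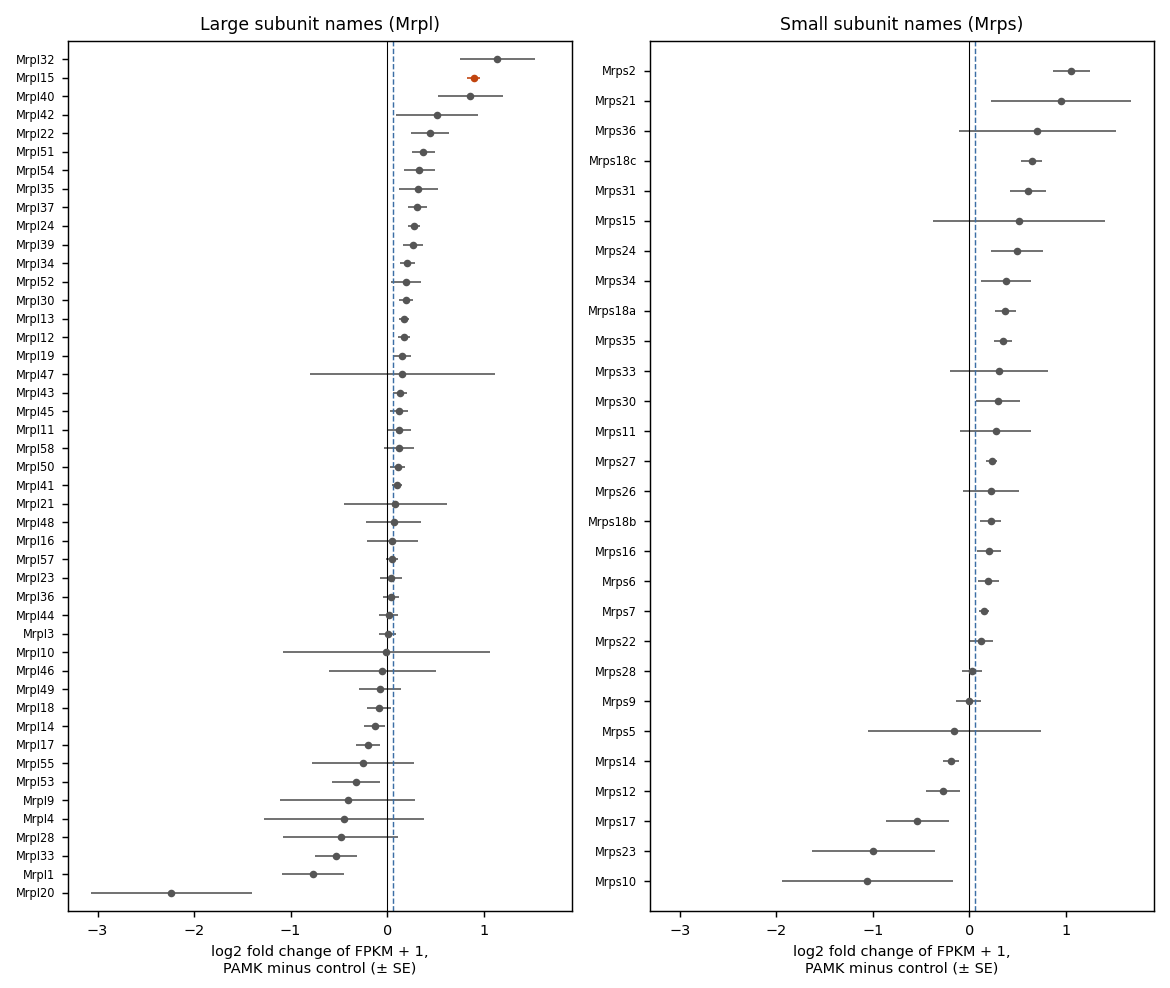
Log2 fold change of FPKM + 1, PAMK minus control, for the 74 tested members, ordered within each subunit name, with bars of 1 SE; the dashed line is the median of all genes tested (0.06) and Mrpl15, past the threshold, is in orange-red. Long bars mark members whose libraries spread widely, such as Mrpl20 at -2.24 and Mrps36 at 0.70, and Mrpl15 has one of the short ones.

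Summed over the members, the level differed little. The large subunit genes summed to 590, 553 and 537 FPKM in PAMK libraries, against 512, 552 and 551 FPKM in control libraries. The small subunit genes summed to 268, 201 and 227 FPKM in PAMK libraries, against 216, 212 and 234 FPKM in control libraries. Both sums overlapped between groups, and the ratio of group means over all members, 1.04 as deposited, was 0.959 with equal medians, so its direction depends on the scaling. As a share of all mRNA FPKM the members held 0.588%, 0.518% and 0.537% in PAMK libraries and 0.545%, 0.542% and 0.541% in control libraries, with the control values inside the range of the PAMK values. The large subunit sum was 2.20, 2.75 and 2.37 times the small subunit sum in PAMK libraries and 2.37, 2.61 and 2.35 times in control libraries.

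**Figure D3:**
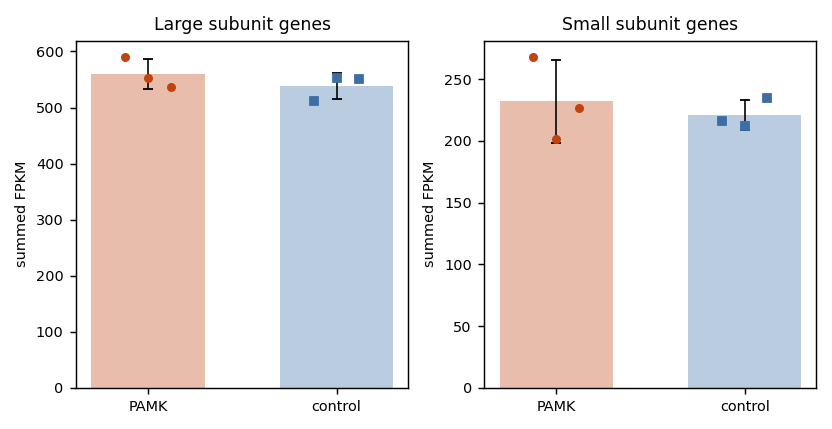
Summed FPKM of the large and small subunit genes by name; points are libraries, bars the mean of 3 and error bars 1 SD. Groups overlap in both panels, and the highest point of each panel is PAMK library 1, at 590 and 268 FPKM.

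Mean levels per transcript length ran from 0.542 to 50.7 FPKM over the 74 tested members, with a median of 6.26 FPKM, beside 4.39 FPKM over all genes tested. The highest large subunit genes were Mrpl12, Mrpl13 and Mrpl30. Mrpl12, which forms the stalk that recruits translation factors, had 56.5, 54.4 and 50.5 FPKM in PAMK cells and 45.6, 47.9 and 49.3 FPKM in control cells. Mrpl30 had 46.0, 43.7 and 49.9 FPKM in PAMK cells and 37.6, 42.8 and 41.2 FPKM in control cells. Neither passed the threshold (limma adjusted p 0.465 and 0.498), although every PAMK library lay above every control library in both. Within each group the ranges of Mrpl13 and Mrpl30 overlapped, and that of Mrpl12 lay above both.

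The highest small subunit genes, all with bacterial counterparts, were Mrps17, Mrps6 and Mrps7. Mrps17 had 22.9, 24.3 and 25.7 FPKM in PAMK cells, against 27.5, 27.5 and 60.5 FPKM in control cells (limma adjusted p 0.626). Control library 3 stood apart through its transcripts ENSMUST00000121813 and ENSMUST00000118420, with 17.9 and 14.7 FPKM there. Mrps6 had 28.7, 25.9 and 23.5 FPKM in PAMK cells and 20.2, 24.6 and 23.1 FPKM in control cells, and Mrps7 had 19.8, 20.3 and 20.3 FPKM in PAMK cells and 17.5, 18.8 and 18.1 FPKM in control cells (limma adjusted p 0.586 and 0.472). Mrps7 separated the groups and Mrps6 did not.

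The lowest tested members averaged near 1 FPKM or less over the 6 libraries. They were Mrpl53 (0.542 FPKM), Mrpl48 (0.795 FPKM) and Mrpl32 (1.23 FPKM) in the large subunit and Mrps34 (0.680 FPKM), Mrps9 (0.945 FPKM) and Mrps26 (1.07 FPKM) in the small subunit. Below the limit of 0.5 FPKM were 4 members. Mrpl2, whose bacterial counterpart lies close to the catalytic centre, had 0.122, 0.203 and 0.249 FPKM in PAMK cells and 0.0918, 0.114 and 0.195 FPKM in control cells, and Mrps25 had 0.149, 0.339 and 0.138 FPKM in PAMK cells and 0.119, 0.0683 and 0.140 FPKM in control cells. Mrpl27 stayed at or below 0.00463 FPKM in all libraries, and Mrpl38 at or below 0.00686 FPKM with 3 libraries listed at 0. These low sums do not cover all rows of the genes: the lncRNA table listed ENSMUST00000142550 of Mrpl38 at 3.40, 7.91 and 5.73 FPKM in PAMK cells and 2.76, 2.68 and 6.53 FPKM in control cells. It listed ENSMUST00000134132 of Mrps25 at 6.12, 6.69 and 5.05 FPKM in PAMK cells and 5.59, 5.66 and 3.98 FPKM in control cells. Both transcripts were chosen after their values were seen.

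**Figure D4:**
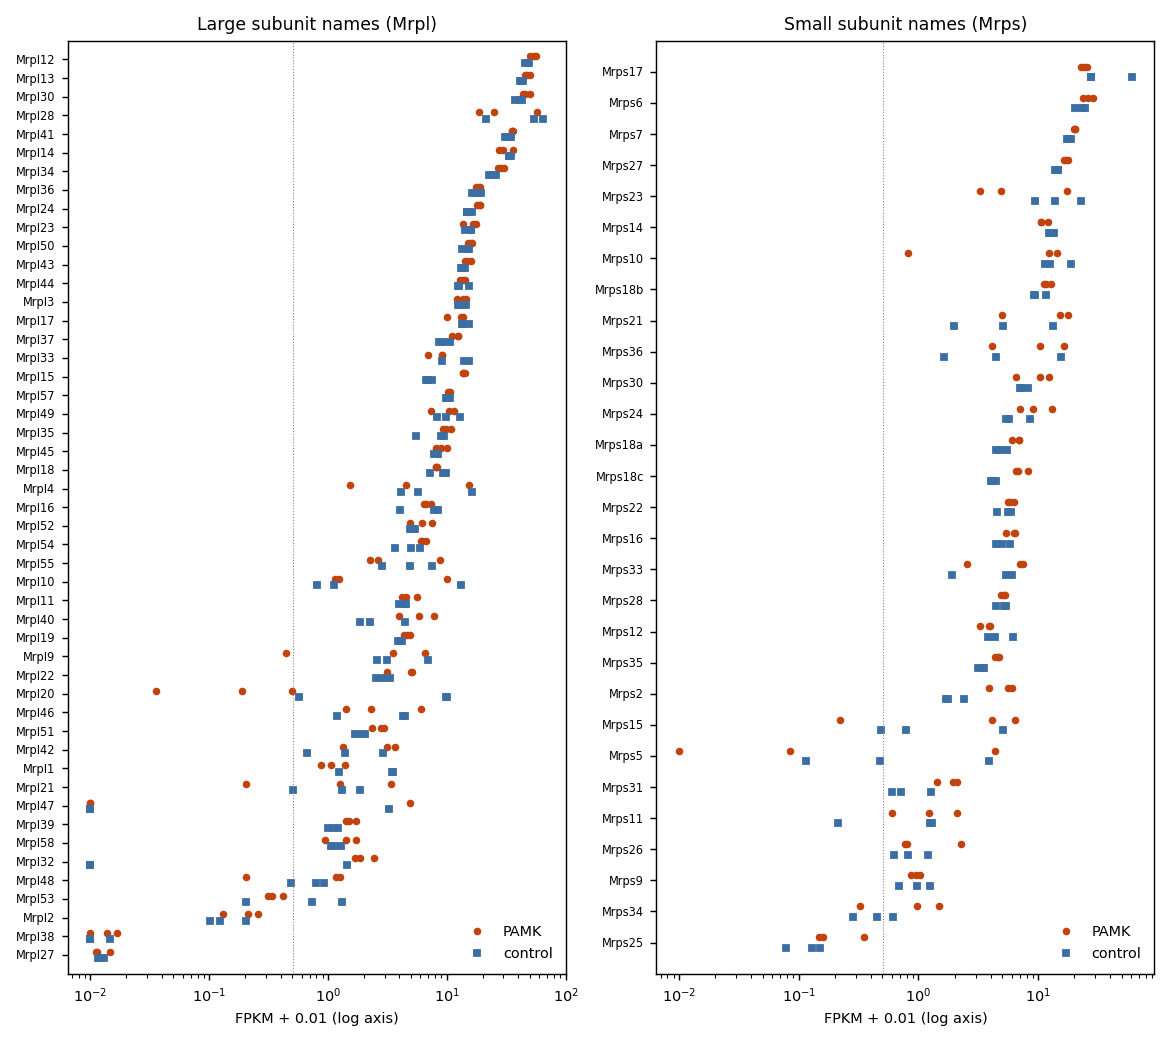
FPKM + 0.01 of each member in every library on a log axis, large subunit names left and small subunit names right, ordered by mean; circles are PAMK libraries, squares control libraries, and the dotted line marks the limit of 0.5 FPKM. Mrpl57 lies at 9.79 to 10.7 FPKM in all 6 libraries, while Mrps10 (0.804 FPKM in PAMK library 2, 11.4 to 18.9 FPKM in the others) has a single library far from the rest.

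The spread between replicates varied among members. The median coefficient of variation within groups was 13.7% in the large and 24.4% in the small subunit, beside 22.3% over all genes tested. In 11 of 74 members (14.9%) the libraries of a group spanned at least 2 log2 units of FPKM + 1, against 12.0% of all genes tested. Mrpl47, chosen after its values were seen like the next members, had 0, 4.86 and 0 FPKM in PAMK cells and 0, 3.25 and 0 FPKM in control cells. Mrps5, with a bacterial counterpart, had 4.33, 0.0738 and 0 FPKM in PAMK cells and 3.89, 0.105 and 0.470 FPKM in control cells. In both genes a library lay either between 3.25 and 4.86 FPKM or at 0.470 FPKM or less, in PAMK and control cells alike. In Mrpl28, 1 mRNA transcript turned likewise: ENSMUST00000127647 was listed at 40.1, 0 and 0 FPKM in PAMK cells and 49.2, 35.8 and 0 FPKM in control cells, while ENSMUST00000025014 had 17.4, 18.5 and 25.0 FPKM in PAMK cells and 15.4, 18.8 and 21.2 FPKM in control cells. The lncRNA table listed ENSMUST00000236040 of Mrpl28 at 10.1, 49.0 and 45.8 FPKM in PAMK cells and 6.94, 17.3 and 47.9 FPKM in control cells. That transcript, also chosen after its values were seen, was high in the libraries where ENSMUST00000127647 was listed at 0. Whether the 0 values of ENSMUST00000127647 reflect a loss of the gene's RNA was not tested. Transcript values that turned between a high level and 0 within a group occurred in other members. The 0 values of ENSMUST00000156816 of Mrpl15 followed the groups, but it was singled out with this known, so the contrast is no test.

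Across single transcripts, 117 of 170 were tested and 1 was called, ENSMUST00000156816, against 0.204% of 14728 transcripts called in either direction and 0.122% called higher. That transcript was singled out with its earlier result known and passed the filter through the PAMK libraries alone. Its call is therefore a description and no independent support. At an unadjusted limma p under 0.05, 16 member transcripts were higher (background 5.04%) and 2 lower (2.43%), both of Mrps17. One of these, ENSMUST00000154358, had 3.18, 2.48 and 2.47 FPKM in PAMK cells and 3.77, 3.96 and 4.50 FPKM in control cells (log2 fold change -0.46, limma adjusted p 0.560). ENSMUST00000195373 of Mrpl30 had 18.3, 14.8 and 19.6 FPKM in PAMK cells and 10.3, 13.3 and 12.7 FPKM in control cells (log2 fold change 0.50, limma adjusted p 0.557). ENSMUST00000024763 of Mrps18a and ENSMUST00000052249 of Mrps27, which hold nearly all or all of their genes' FPKM, had log2 fold changes of 0.41 and 0.23 (limma adjusted p 0.544 and 0.566). The transcript with the highest mean differed between the groups in 5 of 20 members with 2 or more transcripts at 1 FPKM (25.0%), against 24.1% of 2718 genes; the 5 were Mrpl15, Mrpl28, Mrpl30, Mrpl40 and Mrps10.

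The lncRNA table carried 108 transcripts of 54 members, of which 99 were tested and 0 were called, against 0.0380% of 23670 transcripts (limma, Benjamini-Hochberg). At an unadjusted limma p under 0.05 2 were higher (background 3.62%) and 1 was lower (2.15%). ENSMUST00000199689 of Mrpl52 had 4.24, 2.09 and 2.51 FPKM in PAMK cells and 1.21, 0.543 and 0.323 FPKM in control cells (limma adjusted p 0.711). MSTRG.22583.3, assembled at Mrpl35, was listed at 0 in the PAMK libraries and at 2.51, 4.89 and 0 FPKM in the control libraries (limma adjusted p 0.858). It passed the filter through the control libraries alone. MSTRG.22583.2, chosen after its values were seen, was assembled at nearly the same positions and measured in all libraries. It had 3.08, 4.75 and 3.31 FPKM in PAMK cells and 1.96, 1.89 and 4.73 FPKM in control cells, with overlap. ENSMUST00000020770 of Mrps24 had 13.5, 19.9 and 16.6 FPKM in PAMK cells and 23.8, 62.1 and 23.7 FPKM in control cells, without overlap (log2 fold change of FPKM + 0.1 of -0.99 ± 0.411 SE, limma adjusted p 0.858). Without control library 2 that log2 fold change was -0.53. The Mrps24 sum from the mRNA table, named after its values were seen, went the other way. It was 13.1, 7.03 and 9.03 FPKM in PAMK cells and 5.40, 5.69 and 8.56 FPKM in control cells. These groups overlapped (log2 fold change of FPKM + 1 of 0.49, limma adjusted p 0.586).

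The other genes of mitochondrial translation were taken from lists by function, and none of them passed the threshold. Of 5 tested mitochondrial ribosomal proteins with other names, 1 was higher at an unadjusted limma p under 0.05, a class that held 7.30% of all genes tested, with 2.71% in the lower one. This was Dap3, a GTP-binding protein of the small subunit, with 11.9, 4.35 and 8.88 FPKM in PAMK cells and 1.20, 3.40 and 4.09 FPKM in control cells (log2 fold change 1.26 ± 0.468 SE, limma adjusted p 0.489). Gadd45gip1 and Chchd1 overlapped between groups (limma adjusted p 0.538 and 0.719). The median log2 fold change of the list was -0.08, beside 0.06 over all genes.

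Of 25 tested assembly factors, 0 were higher (7.30% of all genes) and 2 lower (2.71%) at an unadjusted limma p under 0.05, with a median log2 fold change of -0.06, beside 0.06 over all genes. Mrm3, a methyltransferase of the large subunit RNA, had 0.0392, 0.00796 and 0.0405 FPKM in PAMK cells, against 3.77, 4.95 and 2.05 FPKM in control cells, without overlap (log2 fold change -2.10 ± 0.260 SE, limma adjusted p 0.154). Malsu1, a factor that keeps the immature large subunit from joining the small one, had 4.66, 4.27 and 4.18 FPKM in PAMK cells and 5.65, 5.28 and 5.52 FPKM in control cells (-0.27, limma adjusted p 0.425). Both lay below the control libraries without passing over all genes.

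Of 14 tested translation factors, 2 were higher (7.30% of all genes) and 0 lower (2.71%) at an unadjusted limma p under 0.05, and the median was -0.06. They were Slirp, which stabilizes mitochondrial messages, with 11.9, 11.9 and 10.3 FPKM in PAMK cells and 8.67, 8.96 and 7.42 FPKM in control cells, and the elongation factor Gfm1 (limma adjusted p 0.346 and 0.489). Of 12 genes of mitochondrial transcription and genome maintenance, 1 was higher and 1 lower, against the same 7.30% and 2.71% of all genes, with a median of -0.05. The catalytic subunit of the mitochondrial DNA polymerase, Polg, had 4.06, 4.80 and 2.95 FPKM in PAMK cells and 1.55, 0.942 and 2.74 FPKM in control cells, and its accessory subunit Polg2 had 0.682, 0.380 and 0.518 FPKM in PAMK cells and 1.18, 0.796 and 0.978 FPKM in control cells (limma adjusted p 0.438 for both). These subunits of one enzyme lay on opposite sides of the control libraries.

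Of 8 tested regulators of mitochondrial biogenesis, 2 were higher (7.30% of all genes) and 1 lower (2.71%) at an unadjusted limma p under 0.05, with a median of 0.13, beside 0.06 over all genes. Nrf1, whose motif was searched above, had 6.57, 7.18 and 5.25 FPKM in PAMK cells and 5.18, 4.51 and 4.41 FPKM in control cells (log2 fold change 0.36, limma adjusted p 0.490). Myc, a growth regulator, had 15.4, 16.2 and 20.1 FPKM in PAMK cells and 13.7, 14.1 and 13.6 FPKM in control cells (0.29, limma adjusted p 0.490). Gabpb1, a subunit of the ETS factor GABP, had 7.92, 4.68 and 5.25 FPKM in PAMK cells and 9.42, 7.94 and 11.2 FPKM in control cells (-0.62, limma adjusted p 0.465). The groups of all 3 genes did not overlap, but none passed the threshold over all genes. Those of Nrf1 nearly touched (5.25 FPKM in PAMK cells, 5.18 FPKM in control cells), as did those of Gabpb1 (7.92 and 7.94 FPKM).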

How the data were processed

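Only the total RNA tables for mRNA and lncRNA transcripts were used; the small RNA table holds no member. The authors deposited 1 value per transcript and library, which the column headers call normalized counts. The values were taken here as FPKM from their layout. The columns share no total, which does not tell FPKM from other normalized counts. Tools in the submitters' processing notes are HISAT2, StringTie, edgeR, cutadapt and FastQC; their versions, the build, the annotation and the strand setting are not given there. A deposited FPKM of 0.0001 stands for nothing measured and was set to 0.

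Transcripts were summed by gene name. A mean of 0.5 FPKM or more was required of genes and mRNA transcripts, which were tested on log2(FPKM + 1), and of 0.1 FPKM or more of lncRNA-table transcripts, tested on log2(FPKM + 0.1), a scale that understates the change of low rows. Differences were tested two-sided with limma 3.58.1 (R 4.3.3), with an eBayes trend and Benjamini-Hochberg adjustment over all rows tested, at 0.05; it was tested on simulated data. Alternatives were other pseudocounts and filters, equal medians, quantile normalization, other eBayes settings, a replicate block, each library left out, added lncRNA-table isoforms and the subunit by structure. Deviations of same-numbered libraries correlated at -0.0229, 0.00663 and 0.00313, so the numbers were not taken to pair them.

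The members, the lists, Mrpl15 and its transcript ENSMUST00000156816 were chosen with earlier results of these data known. Genes named were those past the threshold, the 6 of smallest p, the 3 highest and 3 lowest per subunit, those below the filter, Mrps18a, Mrps30 and Mrps36, every Mrpl15 transcript, 6 other mRNA and 4 lncRNA-table transcripts of smallest p, and up to 4 per list; others are marked as chosen after their values were seen. Many of these genes have processed pseudogenes, and how shared reads were split is not stated.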

Additional observations from a re-analysis of the deposited data

How the results depend on the processing

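The number of members called, and of large subunit members called, was 1 as reported and 0 with equal medians, without an eBayes trend, with robust eBayes and with a replicate block, and 0 to 1 when 1 library was left out; the 1 call, without control library 2, was Mrpl20. The Mrpl15 log2 fold change was 0.79 with equal medians (limma adjusted p 0.0510), 0.89 without a trend (0.0605), with robust eBayes (0.0556) and with the block (0.557), 0.87 to 0.93 without 1 library (0.0530 to 0.120) and 0.10 without ENSMUST00000156816. It passed with the other pseudocounts and filters, quantile normalization and added isoforms. The fitted difference of ENSMUST00000156816, which depends on the pseudocount and is no fold, was 2.83 with the block (limma adjusted p 0.395) and 2.72 to 3.01 without 1 library, past the threshold except without PAMK library 1, control library 1 or control library 2; member transcripts called were 0 with the block and 0 to 1 without 1 library. With the block, 0 of 9781 genes and 0 of 14728 mRNA transcripts were called at all, so the calls lost there are not particular to the members. Members higher at an unadjusted limma p under 0.05 numbered 18 as reported (7.30% of all genes) and 7 with equal medians (3.51%). They numbered 6 with the block (5.16% of all genes) and 6 to 14 without 1 library (5.14% to 6.63%). The summed FPKM ratio was 0.959 with equal medians, against 1.04 as deposited. With lncRNA-table isoforms added, the log2 fold change of Mrpl51 was -0.27 and that of Mrpl32 0.11. Small subunit and lncRNA-table calls stayed at 0 in all alternatives run. With the unit inferred and the depth unknown, no counting error could be given.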
